A study of Mus musculus with 24 samples.

Results

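Total mRNA of mouse pancreatic tumour (KP) organoids was compared with that of normal (N) organoids after both had been treated with CR-31 (labelled CR1-31-b). The comparison takes all libraries that the labels give as total mRNA with this treatment, which are 3 KP and 3 N libraries, 6 of the 24 in the series. None of these 6 libraries enters the comparison of the same organoid types under vehicle. N organoids were grown from pancreatic duct isolates of wild type C57Bl/6J mice. KP organoids came from tumours of mice on the same background that carry Pdx1-Cre and heterozygous conditional mutant alleles, among them Trp53 (R172H), which Cre driven by the Pdx1 promoter switches on in the pancreas. All organoids were embedded in Matrigel and kept in a medium with gastrin, RSPO1, Noggin, FGF10 and nicotinamide, from which EGF and N-acetylcysteine had been left out. All 6 cultures received 10 nM CR-31 for 1 h and cycloheximide in the last minutes before harvest. The comparison asks which transcripts set tumour organoids apart from normal ones in the presence of the inhibitor.

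Organoids are small hollow or solid bodies of epithelial cells that grow in a gel without stroma, and here they stand for pancreatic ductal adenocarcinoma and for the duct epithelium that it resembles. Trp53 encodes p53, a transcription factor that restrains the cell cycle. CR-31 is a rocaglate that clamps the RNA helicase eIF4A onto mRNA and so blocks translation initiation. Its first effect is on translation rather than on the amount of mRNA, and the values here are amounts of mRNA.

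The KP libraries held 118034448, 167384903 and 113995692 counted reads in replicates 1 to 3, and the N libraries held 104524269, 72077342 and 82695543. The run code in the library names was never shared by KP and N libraries, so whatever it stands for and the genotype cannot be told apart. The first principal component of the 11438 tested genes took 54.8% of the variance and put the 3 KP libraries on 1 side and the 3 N libraries on the other. KP replicate 1 lay farthest out on the KP side, at -64.2 against -26.4 and -24.4 for the other 2 KP libraries, and its run code also differed from the one these 2 share. The 4 Y-linked genes examined summed to 24.8, 39.5 and 0.0174 CPM (read counts scaled to a common library size) in KP replicates 1 to 3 and to 0, 0.0963 and 121 CPM in the N replicates, so each type mixed cultures with and without Y-linked transcripts.

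The epithelial label held in all 6 libraries. The 16 markers of duct and general epithelium summed to 10536 to 11242 CPM in KP and to 13833 to 15121 CPM in N libraries. Most markers of other cell types were under 1 CPM. The 12 fibroblast markers, among them Col1a2, Col3a1, Dcn and Lum at 0 reads in all 6, summed to 0.129 to 0.254 CPM in KP and to 0.439 to 1.87 CPM in N. The 10 endocrine markers examined reached at most 0.185 CPM in any library, with Ins1, Ins2 and Gcg at 0. The 8 endothelial markers summed to 0.973 to 3.52 CPM in KP and 1.13 to 6.22 CPM in N, mostly from Esam, with Cdh5 at 0. The 11 acinar markers summed to 3.44 to 4.83 CPM in KP and 3.85 to 4.87 CPM in N, mostly from Cela1, with Cpa1 at 0. Of 13 immune markers, 11 stayed under 1 CPM in every library, Tyrobp and Ms4a1 were at 0, and Ptprc reached at most 0.0275 CPM. The other two were the lysosomal gene Cd68 and Csf1r, the receptor of macrophage colony stimulating factor, at 0.827, 1.02 and 1.28 CPM in KP and 9.57, 8.31 and 5.66 CPM in N. Cd68 was at 4.48, 4.2 and 1.78 CPM in KP and 5.52, 6.9 and 25 CPM in N. Both genes were called lower in KP. The Cd68 call did not hold without KP replicate 1 or without N replicate 3, while that of Csf1r held with any library left out. The immune sum was 3.36 to 5.47 CPM in KP and 15.3 to 31.1 CPM in N, highest in N replicate 3. In these bulk libraries fewer cells of a type and less RNA per cell cannot be told apart.

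With edgeR's quasi-likelihood test and the study's threshold, an adjusted p under 0.25, 1406 genes were higher in KP organoids (12.3% of those tested) and 1680 were lower (14.7%). At an adjusted p under 0.05 the numbers were 177 (1.55%) and 338 (2.96%), against 1 and 0 without KP replicate 1, 582 and 801 with DESeq2 and 586 and 621 in a fit of all 12 total mRNA libraries. Changes of at least 1 on the log2 scale made up 654 of the genes called higher and 1186 of those called lower, so the larger differences lay on the side of loss in KP. The median over all tested genes was -0.05. The calls rest in large part on KP replicate 1, without which 371 genes (3.24%) were higher and 544 (4.76%) lower, although all 3086 called genes kept their sign. Leaving out N replicate 2 gave 889 and 1169 genes, and leaving out N replicate 3 gave 874 and 1060. The 3 KP libraries all lay above the 3 N libraries in 1711 genes (15%) and all below in 1642 (14.4%).

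**Figure D1:**
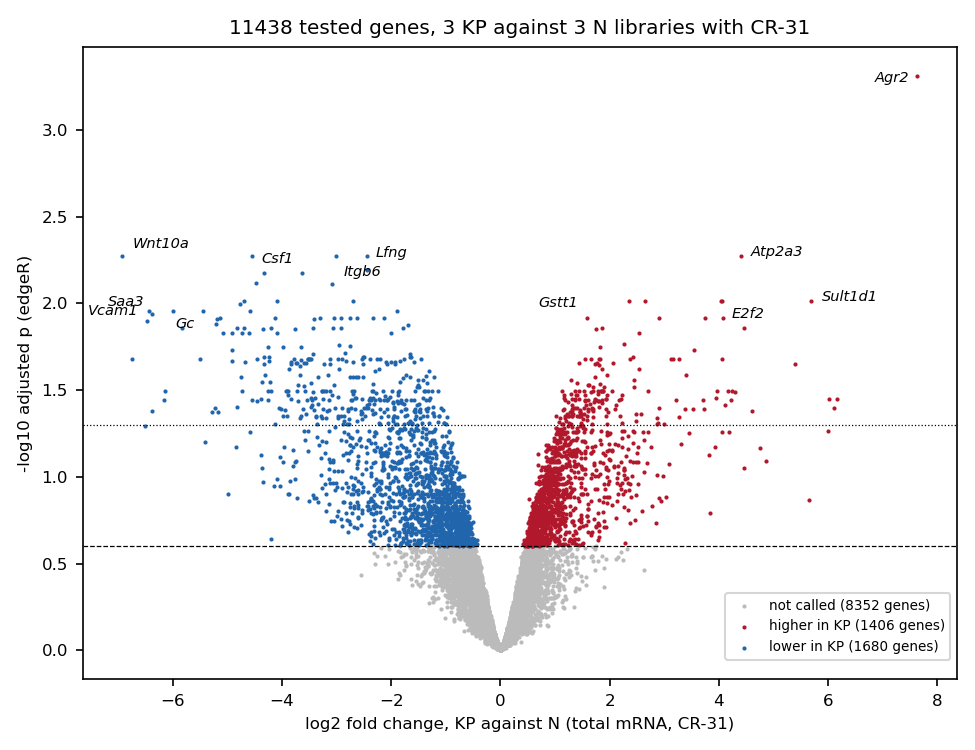
Each point is 1 of 11438 tested genes, with the log2 fold change of KP against N on the x axis and -log10 of edgeR's adjusted p on the y axis. The dashed line marks an adjusted p of 0.25 and the dotted line 0.05; Agr2, at 7.63, stands alone at the top and more genes lie far to the left than far to the right.

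The mutated gene Trp53 (GRCm38, chromosome 11, 69580359 to 69591873, plus strand) stood at 159, 122 and 130 CPM in KP and 129, 113 and 124 CPM in N, and was not called (0.17 ± 0.23, adjusted p = 0.679). Gene totals do not separate a mutant from a wild type allele, so these values do not check the mutation. Cdkn2a, on chromosome 4 from 89274471 to 89294653, encodes the cell cycle inhibitor p16 and the p53 activator p19ARF. It was read at 295, 215 and 213 CPM in KP and 102, 63.2 and 109 CPM in N, with no overlap, and rose by 1.40 ± 0.29 (adjusted p = 0.0337). The related inhibitors Cdkn2c (1.42 ± 0.42) and Cdkn2d (1.36 ± 0.42) were higher too, and Mdm4, which holds p53 in check, was lower (-0.96 ± 0.37). These 3 rises and 1 loss were the calls among 9 tested genes of the p53 and INK4 core, beside 12.3% and 14.7% of all genes. Cdkn2a alone kept its call without KP replicate 1.

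The 25 tested targets of p53 had a median of -0.04, close to that of all genes. Perp and Bax were called higher, and Pmaip1, Fas, Btg2, Xpc and Plk2 lower. Without KP replicate 1 Perp and Pmaip1 were the calls left, and 0 members were higher without KP replicate 2 or N replicate 2. There were 5 higher without N replicate 1, and 2 lower without KP replicate 3 or N replicate 3. The 2 rises and 5 losses of 25 stand beside 12.3% and 14.7% of all genes. Pmaip1, which encodes the death protein NOXA, stood apart at 10.3, 41.3 and 32.8 CPM in KP and 170, 140 and 175 CPM in N. It fell by 2.52 ± 0.45 on the log2 scale, with an adjusted p of at most 0.0541 whichever library was left out. The Cdkn1a transcript, encoding the p53-induced inhibitor p21, was at 486, 449 and 244 CPM in KP and 421, 356 and 490 CPM in N, which overlap. Mdm2, the p53 ubiquitin ligase, overlapped as well (55.3, 133 and 93.9 against 143, 83.8 and 96.9 CPM). Btg2 rested on a single library, N replicate 3, at 1585 CPM against 236 and 156 in the other N cultures.

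The gene with the largest rise was Agr2 (chromosome 12, 35992907 to 36004087, plus strand), a disulfide isomerase of the endoplasmic reticulum that mucus-secreting cells need to fold mucins. It stood at 96.3, 44.6 and 74.5 CPM in KP and at 0.457, 0.193 and 0.42 CPM in N organoids. Its log2 change of 7.63 ± 0.49 had the smallest adjusted p of the comparison, 4.87e-04, and the adjusted p stayed at or under 0.0277 with any library left out. Gcnt3, which builds branches on mucin sugars, rose from 21.9, 1.91 and 2.49 CPM in N to 110, 116 and 228 CPM in KP (4.11 ± 0.90). Atp2a3, a calcium pump of the endoplasmic reticulum, rose by 4.40 ± 0.44, with 22.8, 11.8 and 21.1 CPM in KP against 1.06, 0.949 and 0.629 CPM in N. E2f2, a transcription factor of the S phase programme, rose by 4.04 ± 0.51, from under 1 CPM in each N library to 20.8, 7.18 and 11.3 CPM. The keratin gene Krt4 rose by 5.40 ± 0.97 but ran unevenly through KP cultures, at 173, 116 and 12.5 CPM.

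Further genes among the 15 highest had varied roles. Sult1d1, a sulfotransferase, rose by 5.69 ± 0.69 (15.2, 9.75 and 7.52 CPM in KP against at most 0.385 in N). Cyp2d26, a cytochrome P450, rose by 4.06 ± 0.51, and Bche, butyrylcholinesterase, by 3.74 ± 0.53. Kirrel3, an adhesion molecule, and Rasa4, a GTPase activator that acts on Ras, rose by 4.05 ± 0.69 and 3.94 ± 0.82. Among the 15 largest rises were also 4 histone H2A genes on chromosome 13. Hist1h2ad stood at 931, 16.7 and 573 CPM in KP and 1.12, 8.57 and 12.5 CPM in N, and Hist1h2ab and Hist1h2ae followed the same order within KP, with replicate 2 far below the others. Such genes are near-identical copies and reads with several matches were discarded, so their single values are uncertain.

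**Figure D2:**
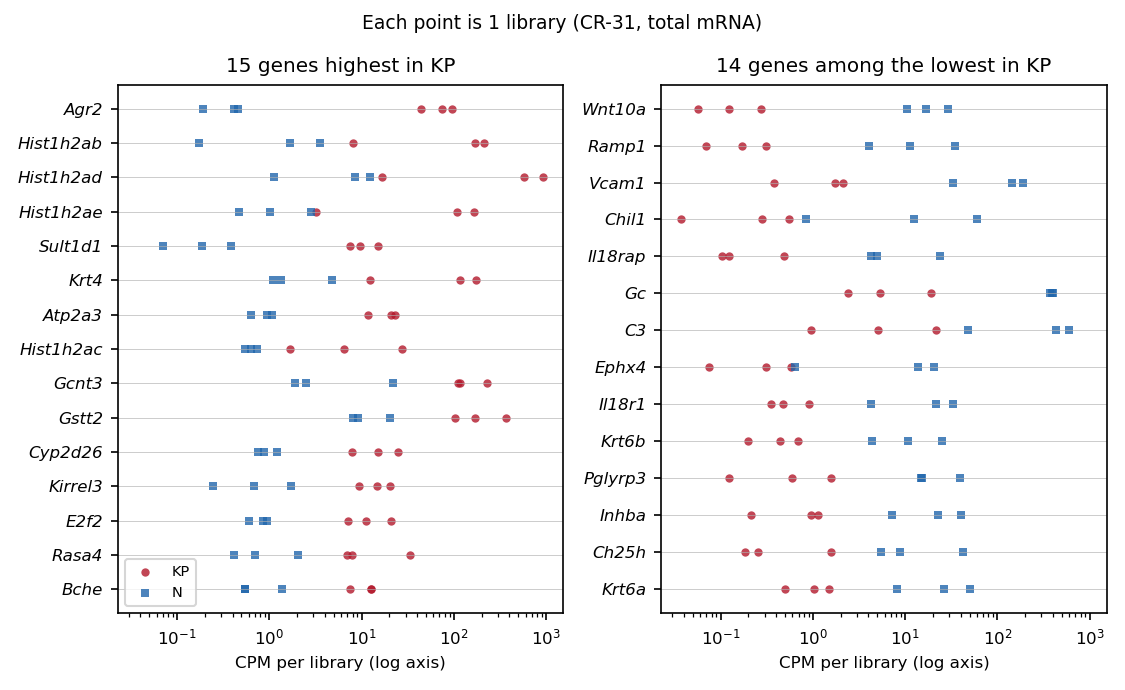
CPM in each of the 6 libraries (x axis, log scale) of the 15 genes with the highest and 14 of those with the lowest log2 change that met the rule for named genes; circles are KP and squares are N libraries. Agr2, Atp2a3 and Gstt2 show a wide gap between types, while Hist1h2ae and Ephx4 have libraries of both types almost side by side.

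The largest losses fell on secreted and surface proteins. Wnt10a, a WNT ligand of skin and gland epithelium (chromosome 1, 74791516 to 74804179), stood at 0.0564, 0.275 and 0.122 CPM in KP and 17, 10.5 and 29.5 CPM in N, a log2 change of -6.92 ± 0.71 (adjusted p = 0.00534). Vcam1, an adhesion molecule that binds leukocyte integrins, was at 0.376, 2.11 and 1.72 CPM in KP and 32.8, 190 and 146 CPM in N (-6.44 ± 0.84). Gc, the vitamin D binding protein, was at 387, 371 and 404 CPM in N, the tightest of these genes, and at 2.38, 5.29 and 19.1 CPM in KP (-5.44 ± 0.72). Ramp1, a partner of calcitonin family receptors, fell by 6.47 ± 0.93.

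Other genes among the 15 lowest belonged to immune defence. Both subunits of the interleukin 18 receptor, Il18r1 (-5.08 ± 0.77) and Il18rap (-5.50 ± 0.94), neighbours on chromosome 1, were under 1 CPM in every KP library. Complement C3 was at 0.959, 5.12 and 21.8 CPM in KP and 48.1, 430 and 605 CPM in N. Chil1, a chitinase-like protein, Pglyrp3, which binds bacterial peptidoglycan, and Ch25h, which makes an antiviral oxysterol, had log2 changes of -6.37 ± 1.44, -4.91 ± 0.85 and -4.82 ± 1.06. Inhba, a subunit of activin, fell by 4.91 ± 0.79 and the neighbouring stress keratin genes Krt6a and Krt6b changed by -4.82 ± 0.71 and -4.92 ± 0.75. The call held with any library left out for each of these 15 genes, the weakest being Chil1, Ephx4 and Ch25h with an adjusted p of 0.221 without KP replicate 1.

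Genes of DNA replication were higher in KP organoids as a group. Of 33 tested members 30 were called higher, beside 12.3% of all genes, and 0 lower, and the median log2 change was 1.18. The members ran from 0.38 to 1.95 and the KP libraries lay above the N libraries in 29 of them, beside 15% of all genes. Cdc6, which loads the replicative helicase, stood at 37.7, 27.6 and 34.2 CPM in KP and 7.92, 10.4 and 9 CPM in N (1.86 ± 0.28). Its partner Cdt1 was at 85.1, 36.4 and 46.5 against 15.7, 15.8 and 14.8 CPM (1.86 ± 0.34). The helicase subunit Mcm3 was at 126, 69.2 and 79.4 against 28.3, 26.4 and 23.1 CPM (1.82 ± 0.29). Mcm10, Rrm2, the small subunit of ribonucleotide reductase, and the flap nuclease Fen1 rose by 1.95, 1.83 and 1.61. The polymerase clamp Pcna changed less, by 0.59 ± 0.27. The list still had 19 members called higher, 0 lower and a median of 1.04 without KP replicate 1.

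E2F transcription factors bind the letters TTTCCCGC or TTTGGCGC near the start of many replication genes. In the RefSeq promoter table (GRCm38.p6), which matched 8848 of the tested genes, 3.01% had either word, on either strand, in the 250 bases before a start. Among the replication genes 6 of 28 did (21.4%), and among the mitosis genes 0 of 26. The windows below show these letters in capitals for 4 genes, read 5′ to 3′ on the gene's own strand, where a word on the opposite strand appears as GCGGGAAA or GCGCCAAA.
Cdc6, chr11:98908005-98908028, plus strand: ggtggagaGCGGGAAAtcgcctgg
Mcm5, chr8:75109352-75109375, plus strand: gaactttcGCGCCAAAacgtccag
Mcm6, chr1:128359737-128359760, minus strand: tggacgggTTTGGCGCgaagtagc
Mcm7, chr5:138172033-138172056, minus strand: ttcgaaccGCGGGAAAcagggtgt
The helicase subunits among these 4 were all called, Mcm5 at 1.85 ± 0.36, Mcm6 at 1.12 ± 0.23 and Mcm7 at 1.18 ± 0.28. A match describes these letters only and was not tested as a binding site.

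Mitosis genes moved with them, 26 of 31 higher, beside 12.3% of all genes, and 0 lower, with a median of 1.29. The kinase genes Aurkb (105, 43.5 and 58.4 CPM in KP against 21.5, 20.6 and 13.1 in N), Aurka and Plk1 rose by 1.90 ± 0.37, 1.86 ± 0.37 and 1.88 ± 0.38. Top2a, which untangles chromosomes, rose by 1.31 ± 0.27 and the cyclin gene Ccnb2 by 1.54 ± 0.33. Mki67, which encodes the proliferation antigen Ki-67, stood at 13.9, 9.16 and 19.9 CPM in KP and 7.63, 5.31 and 3.97 CPM in N (1.34 ± 0.41, adjusted p = 0.094). Leaving out KP replicate 1 left 18 mitosis genes higher and 0 lower.

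**Figure D3:**
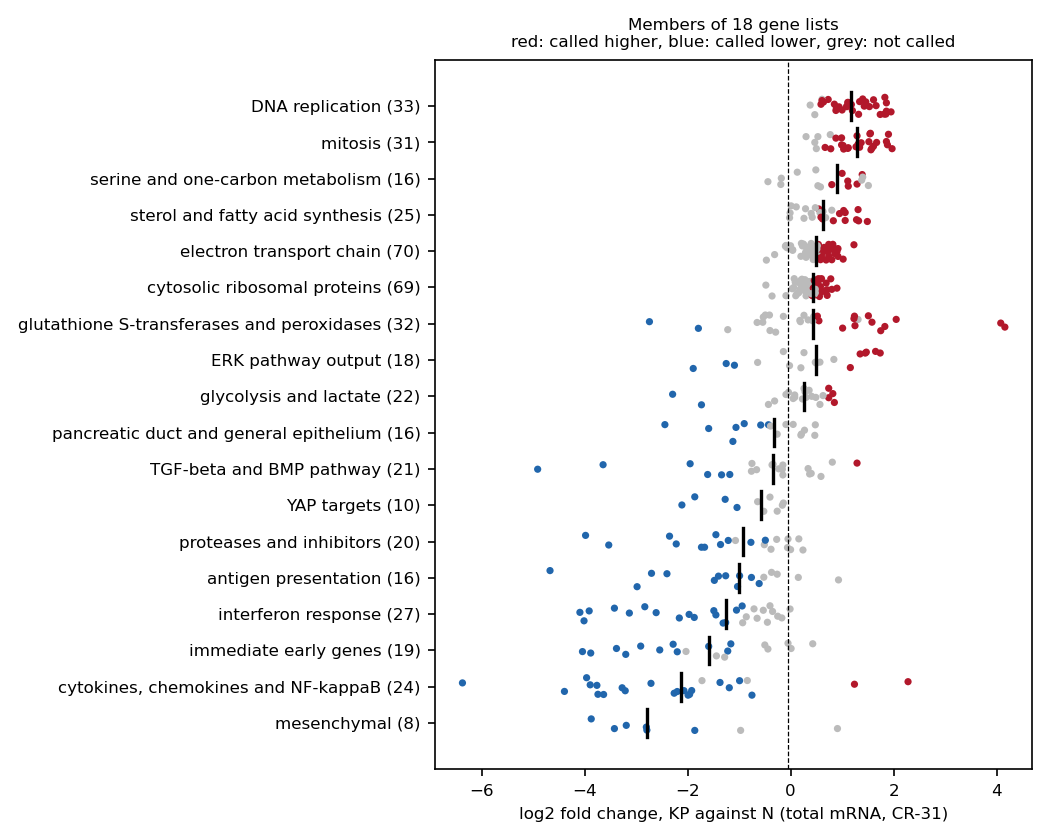
Log2 fold change of KP against N (x axis) for the tested members of 18 gene lists, with their number in brackets; red members were called higher, blue lower and grey not called. Black bars are list medians and the dashed line is the median of all genes, -0.05. Replication and mitosis lie wholly to the right of 0, and the interferon list wholly to the left.

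Biosynthetic genes were shifted upward by less. Of 25 genes of sterol and fatty acid synthesis 12 were higher and 0 lower, beside 12.3% and 14.7% of all genes, with a median of 0.62. The mevalonate pathway supplied Pmvk (1.31 ± 0.29), Mvd (1.32 ± 0.30) and Mvk (1.28 ± 0.33), and the desaturase gene Scd1 rose by 1.49 ± 0.39. N replicate 1 was itself as high as the KP libraries across this list, and without it 21 members were higher, whereas 4 were without KP replicate 1, 6 without KP replicate 2, 5 without N replicate 2 and 6 without N replicate 3. Of 16 genes of serine and folate metabolism 6 were higher and 0 lower, beside the same 12.3% and 14.7%, with a median of 0.90. Mthfd1 stood at 103, 77.8 and 72.5 CPM in KP and 41.1, 27.7 and 34.6 CPM in N (1.29 ± 0.26), and the serine synthesis genes Psat1, Psph and Phgdh rose by 1.39 ± 0.38, 1.00 ± 0.42 and 0.80 ± 0.35. The count was 9 without N replicate 1 and 3 without KP replicate 1. It was 4 without KP replicate 2, and 4 without N replicate 2, when 1 member was lower.

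Electron transport chain genes had 27 of 70 members higher, beside 12.3% of all genes, and 0 lower, with a median of 0.49. Cyc1, a subunit of complex III, was at 386, 212 and 199 CPM in KP and 117, 106 and 117 CPM in N (1.23 ± 0.30), and Atp5g1 and Uqcrq rose by 1.02 ± 0.28 and 0.83 ± 0.23. Cytosolic ribosomal proteins had 29 of 69 higher, beside the same 12.3%, and 0 lower, with a median of 0.44. The count was 18 with DESeq2, 16 with upper-quartile scaling and 8 with the replicate block. Rps2 was at 9602, 6211 and 6847 CPM in KP and 3690, 5060 and 3393 CPM in N (0.90 ± 0.24), and Rpl13a at 4294, 3865 and 3438 against 2357, 2469 and 2354 CPM (0.69 ± 0.19). Many ribosomal protein genes have processed copies elsewhere in the genome, and reads that matched several places were discarded, so single values are uncertain. Both counts depended on single libraries, most of all KP replicate 1, without which 4 and 3 genes were called, with medians of 0.34 and 0.30. The ribosomal count was 15 and 14 without KP replicates 2 and 3 and 9 and 6 without N replicates 1 and 3, and 17 of the electron transport genes were called without N replicate 3.

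In carbon metabolism, 4 of 22 glycolysis genes were higher (Pgam1, Pkm, Hk1 and Ldha) and 2 lower (Ldhb and Eno2), shares near the 12.3% and 14.7% of all genes. Pkm, the pyruvate kinase gene, was at 4460, 2701 and 2493 CPM in KP and 1984, 1158 and 2224 CPM in N (0.85 ± 0.31). The lactate dehydrogenase subunits moved apart, Ldha by 0.74 ± 0.31 and Ldhb by -2.29 ± 0.52, the latter from 10.3, 18.9 and 29 CPM in N to 2.2, 3.14 and 6.59 CPM in KP. None of the 4 rises was called without KP replicate 1 or without N replicate 2. The glycolysis list had 1 rise without KP replicate 2 and 6 without N replicate 3. It kept 2 losses without N replicate 1 and had 1 with any other library left out. Of 10 genes of the pentose phosphate and hexosamine pathways 4 were higher and 0 lower, among them the NADPH producers Pgd (473, 308 and 308 against 154, 142 and 214 CPM, 1.10 ± 0.28) and G6pdx (0.78 ± 0.27) and Gfpt1 (1.00 ± 0.29), which starts hexosamine synthesis. The glucose transporter gene Slc2a1 and the hexokinase gene Hk2 overlapped between types. The count was 2 without KP replicate 1 and 2 without N replicate 2.

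Of 32 glutathione S-transferases, peroxidases and related enzymes 13 were higher and 2 lower, beside 12.3% and 14.7% of all genes, with a median of 0.44, and 8 were still called higher without KP replicate 1. Gstt1, Gstt2 and Gstt3 lie within a stretch of chromosome 10 from 75774115 to 75837424, and all rose. Gstt2 was at 367, 170 and 104 CPM in KP and 8.12, 9.21 and 20.5 CPM in N (4.08 ± 0.55). Gstt1 was even across cultures, at 227, 235 and 234 against 82.1, 74.1 and 77.2 CPM (1.58 ± 0.22). Gstm2, Gstm1 and Gstm3 rose by 1.83 ± 0.31, 1.01 ± 0.25 and 1.25 ± 0.29, and the peroxidase genes Gpx8 (-2.74 ± 0.75) and Gpx3 (-1.79 ± 0.61) fell. Neither loss was called without KP replicate 1, and 5 members were lower without N replicate 1.

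Targets of NRF2, the transcription factor of the antioxidant response, numbered 28. Of these 6 were higher and 0 lower, beside 12.3% and 14.7% of all genes, with a median of 0.34 and 0 calls of a rise when either KP replicate 1 or N replicate 2 was left out, and with 11 when N replicate 1 was. The 6 were Abcc3, Ugdh, Cbr3, Aldh3a1, Gsr and Ftl1. The rate-limiting enzyme of glutathione synthesis, Gclc, was at 256, 303 and 151 CPM in KP and 327, 54.7 and 96.8 CPM in N, and Nqo1 at 5.2, 3.89 and 2.09 against 2.74, 0.179 and 0.975 CPM, neither called.

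Inflammatory genes were lower in KP organoids as a group, in number and in size. Of 24 cytokines, chemokines and members of the NF-kappaB response 20 were lower, beside 14.7% of all genes, and 2 were higher, with a median of -2.13. Csf1, the macrophage growth factor, was at 4.94, 9.15 and 11.5 CPM in KP and 67.9, 132 and 117 CPM in N (-3.63 ± 0.40, adjusted p = 0.00671). Lcn2, an iron-binding acute phase protein, was at 48.8, 161 and 345 CPM in KP and 697, 3020 and 4538 CPM in N (-3.89 ± 0.80). The chemokine gene Cxcl1 was at 43.2, 9.93 and 31.1 against 216, 103 and 495 CPM (-3.27 ± 0.66), and Saa3, an acute phase protein, was under 0.2 CPM in every KP library and at 2.13, 12.2 and 13.7 CPM in N. The feedback genes Tnfaip3 and Birc3 fell by 2.20 ± 0.38 and 1.92 ± 0.34 and the NF-kappaB subunit gene Relb by 1.37 ± 0.29. The 2 that rose were the alarmin gene Il33 (27.7, 41.9 and 20.9 against 11.1, 14.1 and 13.2 CPM, 1.24 ± 0.32) and Cxcl15 (2.28 ± 0.77). Without KP replicate 1 the list had 9 members lower and 2 higher, with a median of -2.06. N replicate 3 stood apart, at a median deviation of 1.92 from the gene means against -0.14 and 0.58 in the other N libraries, and without it 16 members were lower and 1 higher, with a median of -1.41.

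The letters GGG, any 2 bases and TTTCC, a form of the site bound by NF-kappaB, were found within 250 bases before the start of 1.88% of the matched genes and of 6 of 18 members of this list (33.3%). They are shown in capitals for 3 of the genes that fell, where GGAAA, any 2 bases and CCC is the word on the opposite strand.
Csf1, chr3:107760606-107760631, minus strand: gccttgagGGAAAGTCCCtaggggcc
Cxcl1, chr5:90891166-90891191, plus strand: tgtactccGGGAATTTCCctggcccg
Cxcl2, chr5:90903794-90903819, plus strand: tgagctcaGGGAATTTCCctggtccc
Cxcl2 was at 2.66, 9.82 and 24.9 CPM in KP and 21, 69.8 and 415 CPM in N, so that KP replicate 3 was above N replicate 1 (-3.76 ± 1.09, adjusted p = 0.0825).

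Interferon-stimulated genes were lower too, 16 of 27, beside 14.7% of all genes, with 0 higher and a median of -1.26. Every tested member had a log2 change below 0. Ifit3, which binds viral RNA complexes, was at 0.395, 0.304 and 0.643 CPM in KP and 2.92, 8.44 and 11.6 CPM in N (-4.09 ± 0.63). Ifit1 fell by 3.91 ± 0.77, the antiviral gene Rsad2 by 4.01 ± 0.90, and Oasl2 changed by -3.42 ± 0.77. Isg15, a ubiquitin-like modifier, was at 1.63, 1.11 and 1.52 against 2.21, 5.27 and 11.5 CPM (-2.16 ± 0.60). Within N organoids these genes were lowest in replicate 1 and highest in replicate 3, with N replicate 1 at a median deviation of -0.21 from the gene means, beside -0.57 to -0.23 in KP. The count of lower members was 6 without KP replicate 1, and 11 without N replicate 3, when the median was -0.72.

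The response element of these genes, GAAA, any 2 bases and GAAA, was present before the start of 3.06% of the matched genes and of 8 of 20 interferon-stimulated genes (40%), on either strand. It is in capitals below, with TTTC, any 2 bases and TTTC for the opposite strand.
Ifit1, chr19:34640777-34640802, plus strand: ggcttcagTTTCACTTTCcagtctca
Ifit3, chr19:34583399-34583424, plus strand: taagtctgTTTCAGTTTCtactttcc
Isg15, chr4:156200867-156200892, minus strand: aggaaaccGAAACAGAAAatagctct
B2m, chr2:122147540-122147565, plus strand: aagaacatGAAACTGAAAatgggaaa
B2m, the light chain of MHC class I, belonged to the antigen presentation list, where 2 of 14 promoters had the word (14.3%).

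That list had 11 of 16 members lower, beside 14.7% of all genes, and 0 higher, with a median of -1.01, and 6 lower without KP replicate 1. B2m stood at 133, 112 and 181 CPM in KP and 191, 373 and 303 CPM in N (-1.03 ± 0.31). The immunoproteasome gene Psmb8 fell by 2.98 ± 0.62, the peptide transporter gene Tap2 by 1.48 ± 0.34 and Tapbp, which loads peptides on class I, by 0.99 ± 0.25. The class II genes Cd74 and H2-DMb1, which epithelium can express under interferon gamma, were at 0.15, 0.773 and 0.73 against 4.05, 13.8 and 24.6 CPM (-4.67 ± 0.82) and at 0.442, 0.363 and 0.556 against 2.06, 3.93 and 2.84 CPM (-2.70 ± 0.50). Cd274, the gene of PD-L1, fell by 2.40 ± 0.62. The immune marker sum given above was also lower in KP, while Ptprc, the defining leukocyte gene, was at or near 0 in all 6 libraries.

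Immediate early genes gave 11 of 19 members lower, beside 14.7% of all genes, with a median of -1.59, and N replicate 3 set their values apart. The KP libraries lay wholly below N in 3 of the 19, a share near the 14.4% of all genes. Fos was at 103, 135 and 61.5 CPM in KP and 109, 42.3 and 2105 CPM in N, Dusp1 at 83.2, 91.9 and 72.3 against 97.8, 76.5 and 2101 CPM, and Egr2 at 0.367, 0.685 and 0.278 against 0.316, 0.729 and 18.7 CPM. N replicates 1 and 2 overlapped KP in all 3. Without N replicate 3 the list had 1 member lower and 2 higher, with a median of -0.08, and without KP replicate 1 it had 1 lower and 0 higher. DESeq2 called 6 lower and the fit with a replicate block 3. Fosl2, an AP-1 subunit, differed in all cultures, at 42.2, 90.5 and 49.9 against 133, 170 and 123 CPM (-1.22 ± 0.32, at most 0.239 with any library left out). Atf3 followed Fos, at 984 CPM in N replicate 3 and 55.3 to 77.2 CPM in the other 5 libraries.

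**Figure D4:**
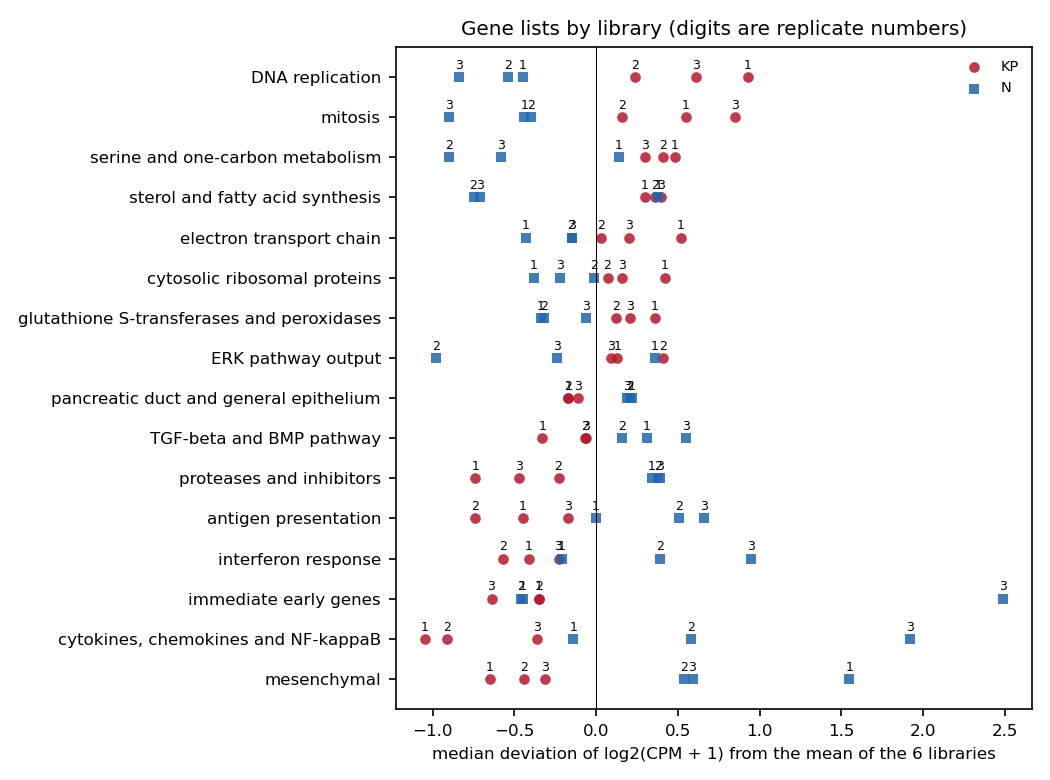
Position of each library on 16 gene lists, as the median over members of the deviation of log2(CPM + 1) from the gene's mean over the 6 libraries; circles are KP, squares are N, and digits are replicate numbers. N replicate 3 alone carries the immediate early list at 2.49, and N replicate 1 lies at 0.38 among the KP libraries on sterol and fatty acid synthesis.

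Of 21 integrins, laminins and matrix receptors 3 were higher, a share near the 12.3% of all genes, 9 lower, beside 14.7%, and 9 not called, with a median of -0.06. Itgb6, the epithelial integrin subunit that activates TGF-beta, was at 5.99, 13.3 and 12.1 CPM in KP and 93.4, 70 and 103 CPM in N (-3.09 ± 0.36), and its partner Itgav fell by 1.88 ± 0.38. Cd44, a hyaluronan receptor, was at 171, 294 and 308 against 759, 811 and 876 CPM (-1.66 ± 0.28). The laminin-332 subunits Lama3 and Lamb3 fell by 3.47 ± 0.66 and 1.35 ± 0.26, while Lamc1 and Lama5 of other laminins rose by 1.17 ± 0.24 and 0.93 ± 0.33 and the perlecan gene Hspg2 by 0.82 ± 0.31. Leaving out KP replicate 1, Lamc1 was the single rise left and 7 members were lower. The number of rises was 1 without N replicate 2 and 6 without N replicate 1.

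Proteases and their inhibitors had 11 of 20 members lower and 0 higher, beside 14.7% and 12.3% of all genes, with a median of -0.92. Ctsl, a lysosomal protease, was at 76.8, 83 and 83.1 CPM in KP and 227, 173 and 264 CPM in N (-1.45 ± 0.25). Slpi, an inhibitor of neutrophil elastase, fell by 3.53 ± 0.61, Adam8 by 2.35 ± 0.47 and Timp1 by 2.22 ± 0.46. The count was 6 without KP replicate 1.

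Of 8 tested mesenchymal genes 6 were lower, beside 14.7% of all genes, and 0 higher in the tumour organoids, with a median of -2.79. The KP libraries lay wholly below N in 2 of the 8, beside 14.4% of all genes. S100a4 went the other way, at 5.9, 2.09 and 2.8 CPM in KP and 2.19, 2.41 and 1.16 CPM in N, and was not called. Fn1, fibronectin, was the abundant one, at 10.7, 23.9 and 106 CPM in KP and 635, 352 and 295 CPM in N (-3.19 ± 0.75). Vim and Twist1 were at or under 0.591 CPM in KP and reached 4.39 and 4.56 CPM in single N libraries. Fn1 and Itga5 alone kept the call without KP replicate 1. The fibroblast sum was also lower in KP, from 0.129 to 0.254 CPM against 0.439 to 1.87 CPM, and its part in the result was not tested.

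Lists of developmental pathways were small, and their counts stand beside 12.3% higher and 14.7% lower among all genes. In the TGF-beta and BMP list 6 of 21 were lower and 1 higher. Tgfb2 was at 1.24, 5.25 and 7.6 CPM in KP and 64.5, 67.3 and 43.9 CPM in N (-3.64 ± 0.58), and Tgfb1 and the receptor gene Tgfbr1 fell by 1.18 ± 0.33 and 1.34 ± 0.44, while the ligand gene Bmp7 rose by 1.29 ± 0.39. Among 17 WNT genes 4 were lower and 2 higher, a share of rises near that of all genes. Beside Wnt10a, Wnt7a fell from 49.6, 40.9 and 50.8 CPM to 0.893, 5.25 and 0.834 CPM (-4.33 ± 0.71), and the WNT inhibitor gene Apcdd1 rose by 3.39 ± 0.63 at a level of 1.02 to 1.42 CPM. In the Notch pathway the glycosyltransferase gene Lfng fell evenly, from 66.8, 55.4 and 60.7 CPM to 8.98, 12.2 and 12.5 CPM (-2.44 ± 0.26), and the target Hey1 changed by -3.66 ± 0.86, while the ligand gene Jag2 and Notch1 rose by 1.20 ± 0.35 and 1.12 ± 0.44. Of 10 YAP targets 4 were lower and 0 higher, led by Ankrd1 (39.7, 121 and 108 against 514, 255 and 387 CPM, -2.11 ± 0.43), the single YAP call left without KP replicate 1. These short lists moved with single libraries. Jag2 and Notch1 were not called without KP replicate 1, and the Notch list had 4 members lower without N replicate 1. The WNT list had 8 lower without N replicate 1 and 1 higher without KP replicate 1, and the YAP list 2 lower without N replicate 1. The TGF-beta list had 3 higher without N replicate 3 and 0 without KP replicate 1.

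Of 16 duct and epithelial genes 7 were lower and 0 higher, beside 14.7% and 12.3% of all genes, with a median of -0.33, and 2 were higher and 6 lower without N replicate 1. The duct keratin Krt19 overlapped between types (1359, 1657 and 1422 against 1499, 1462 and 1776 CPM), as did the chloride channel gene Cftr. The tight junction gene Cldn4 was at 249, 298 and 190 CPM in KP and 699, 579 and 933 CPM in N (-1.59 ± 0.28). Spp1, osteopontin, fell by 2.44 ± 0.53, Epcam by 1.06 ± 0.31 and the duct transcription factor gene Sox9 by 1.12 ± 0.26. Sox9, Spp1 and Cldn4 kept their calls without KP replicate 1, when 4 members in all were called. Slc4a4, the bicarbonate cotransporter of duct cells, fell to 10.8, 46.8 and 30.5 CPM from 129, 140 and 117 CPM (-2.13 ± 0.45), while the water channel gene Aqp5 rose to 625, 609 and 354 CPM from 21.9, 24 and 89.7 CPM (3.55 ± 0.57), and the chloride channel gene Ano1 by 1.00 ± 0.28.

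Of 19 pancreas and endoderm transcription factors 5 were higher and 5 lower, beside 12.3% and 14.7% of all genes. Foxa1 was at 1.38, 0.732 and 1.59 CPM in KP and 4.65, 12.3 and 8.27 CPM in N (-2.76 ± 0.52), and Onecut2 and Klf5 fell by 1.61 ± 0.39 and 0.67 ± 0.26. Hnf4g, a nuclear receptor of gut epithelium, rose by 2.57 ± 0.59, Pdx1 by 1.00 ± 0.32 and Hnf4a, with overlapping libraries, by 0.69 ± 0.30. Gata6, which marks the classical subtype of pancreatic cancer, overlapped between types, at 40.3, 48.1 and 45.8 against 45, 42.3 and 49 CPM. Spdef, a regulator of goblet cells, was called higher (4.87 ± 1.40), but KP replicate 2, at 0.164 CPM, lay within the N range. Of the rises Hnf4g alone was called without KP replicate 1, against 4 of the 5 losses, and 3 rises were called without N replicate 2 or N replicate 3.

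The subtype lists had calls in both directions, beside 12.3% higher and 14.7% lower among all genes. Of 11 classical genes 3 were higher (Agr2, Tff3 and Prr15l) and Ctse, cathepsin E, was lower, at 1.08, 2.62 and 0.643 against 12.4, 54 and 15.5 CPM (-4.23 ± 0.73). Of 14 basal-like genes 2 were higher and 4 lower. Tns4, which links adhesion sites to the cytoskeleton, rose to 47, 95.5 and 13.6 CPM from 4.36, 1.77 and 10.1 CPM (3.27 ± 0.77), while the keratin genes Krt6a, Krt6b and Krt14 fell. Leaving out KP replicate 1 left 1 classical rise, and 1 basal-like rise and 2 losses. The basal-like rises also numbered 1 without KP replicate 3, N replicate 2 or N replicate 3, and 3 without N replicate 1. The classical list had 4 rises and 2 losses without N replicate 1. The mucin, trefoil and gastric list had 5 of 14 higher and 1 lower, and beside Agr2 and Gcnt3 it gave Sult1c2 (72.9, 30.5 and 60.1 against 4.63, 11.1 and 14.1 CPM, 2.45 ± 0.46), Tff3 and Muc13, the last with overlapping libraries. Without KP replicate 1, 3 of these rises and the loss of Ctse were called.

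Of 18 transcripts downstream of ERK 6 were higher, beside 12.3% of all genes, and 3 lower, a share near the 14.7% of all genes, with a median of 0.49. Spry2, a feedback inhibitor of the pathway, was at 154, 126 and 128 CPM in KP and 77.2, 32.9 and 39.4 CPM in N (1.45 ± 0.34). The ETS factors Etv4, Etv5 and Etv1, Spry4 and the cyclin gene Ccnd1 (1677, 2956 and 1447 against 1346, 547 and 828 CPM, 1.16 ± 0.38) were higher, and Ier3, Epha4 and Dusp7 were lower. In N organoids the list ran from a deviation of -0.98 in replicate 2 to 0.36 in replicate 1, which reached the KP range. At the receptor, Tgfa, a ligand of the EGF receptor, rose to 241, 210 and 162 CPM from 78.5, 54.9 and 41.1 CPM (1.81 ± 0.30), and Egfr itself (chromosome 11, 16752203 to 16918158) fell to 12.6, 21.1 and 22.6 CPM from 188, 52.4 and 82.6 CPM (-2.52 ± 0.47). Without N replicate 1 the ERK list had 9 higher and a median of 1.04, and without N replicate 2 a median of 0.27. Without KP replicate 1 it had 2 higher and 1 lower, and the calls of Tgfa and Egfr held.

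Eif4a1, the target of CR-31, was at 1109, 999 and 1262 CPM in KP and 1276, 925 and 1381 CPM in N, and Eif4e at 149, 132 and 194 against 165, 135 and 150 CPM. Of 12 genes of eIF4F and its regulators 1 was called higher, beside 12.3% of all genes, the kinase gene Mknk2 (490, 333 and 258 against 193, 242 and 173 CPM, 0.83 ± 0.29). The count was 0 without KP replicate 1 or N replicate 3 and 4 without N replicate 1. It was 3 with the replicate block and 4 in the fit of all 12 total mRNA libraries. Of 21 stress genes of the endoplasmic reticulum 3 were higher, a share near the 12.3% of all genes, and 6 lower, beside 14.7%. Herpud1 was at 119, 102 and 81.8 against 166, 154 and 288 CPM (-1.01 ± 0.30), and Hspa5 and Dnajb9 were highest in N replicate 3. Without N replicate 3 the list had 1 higher and 1 lower, without KP replicate 1 it had 0 and 1, and without KP replicate 2 it had 2 and 2.

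Amino acid genes gave 4 of 18 higher and 4 lower, beside 12.3% and 14.7% of all genes. The counts were 1 and 1 without KP replicate 1 and 7 and 2 without N replicate 1. Gpt, alanine transaminase, rose to 14.3, 10.7 and 13.8 CPM from 1.5, 2.78 and 3.23 CPM (2.37 ± 0.41), and the glutamine transporter gene Slc1a5 by 1.08 ± 0.39. Glul, which makes glutamine, fell to 14.9, 19.7 and 9.77 CPM from 20.1, 101 and 61.2 CPM (-2.04 ± 0.52). Of 17 retinoid, aldehyde and xenobiotic enzymes 3 were higher, a share near that of all genes, and 6 lower, with 1 and 3 without KP replicate 1. Rdh10, which oxidizes retinol, fell to 24.6, 61.1 and 35.5 CPM from 299, 189 and 325 CPM (-2.75 ± 0.38), beside Rbp4 (-1.43 ± 0.44) and Aldh1a3 (-1.94 ± 0.87). Of 17 S100 and annexin genes 4 were higher and 4 lower, beside 12.3% and 14.7% of all genes, and 9 were not called. The KP libraries lay wholly above N in 2 and wholly below in 4, beside 15% and 14.4% of all genes. Annexin genes Anxa1, Anxa5 and Anxa6 fell by 0.91 to 0.97 and S100a11 by 0.42, while S100a6, S100a13, S100a14 and S100a16 rose by 0.91 to 1.16. Of all these Anxa1 alone was called without KP replicate 1. The S100 and annexin rises numbered 2 without KP replicate 2 or N replicate 2 and 5 without KP replicate 3.

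The 6 vehicle libraries, fitted in the same way, gave 1794 genes higher in KP (15.7%) and 2051 lower (17.9%). That sum of 3845 was 1628 without KP replicate 1 and 2243 without N replicate 3. Of the 3086 genes called with CR-31, 2573 were called in the same direction with vehicle, which is 83.4% of the CR-31 list and 66.9% of the vehicle list, and 1 in the opposite direction. Across the 11438 genes the log2 changes had a Pearson r of 0.932, a description over genes that are not independent. The libraries are separate, but same-numbered cultures of a type deviated together between treatments, with r from 0.329 to 0.845 in KP and from 0.613 to 0.91 in N, so the 2 comparisons are not independent evidence. Agr2 changed by 7.63 with CR-31 and 8.25 with vehicle, Wnt10a by -6.92 and -6.91, Csf1 by -3.63 and -3.99, and Cdc6 by 1.86 and 1.71. DNA replication had 30 of 33 genes higher with CR-31 and 33 with vehicle, and the cytokine list had 20 and 19 lower.

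Tested directly with edgeR, the difference between CR-31 and vehicle in KP against N had 0 genes (0%) under an adjusted p of 0.25, and 15 at an unadjusted p under 0.05. With each culture as a replicate block, which takes the shared culture out of the error, 1 gene was called, Gm8909 (6.74 ± 0.81, adjusted p = 0.101), a predicted gene with 1.5 in CR-31 and -5.57 in vehicle, and 104 had an unadjusted p under 0.05. Immediate early genes had a median difference of -1.41 between treatments without the block and -0.45 with it. Ribosomal proteins had 29 of 69 higher with CR-31 (median 0.44) and with vehicle 0 higher and 2 lower (median -0.07). All 69 had a positive difference, with a median of 0.46 without the block and 0.42 with it, and 0 were called. From vehicle to CR-31 their median log2(CPM + 1) moved by 0.31, -0.18 and -0.12 in KP cultures 1 to 3 and by -0.26, -0.18 and -0.86 in N cultures, so KP culture 1 and N culture 3 moved farthest. Immediate early genes moved by 3.18 in N culture 3 and by 0.10 to 0.74 in the other 5.

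**Figure D5:**
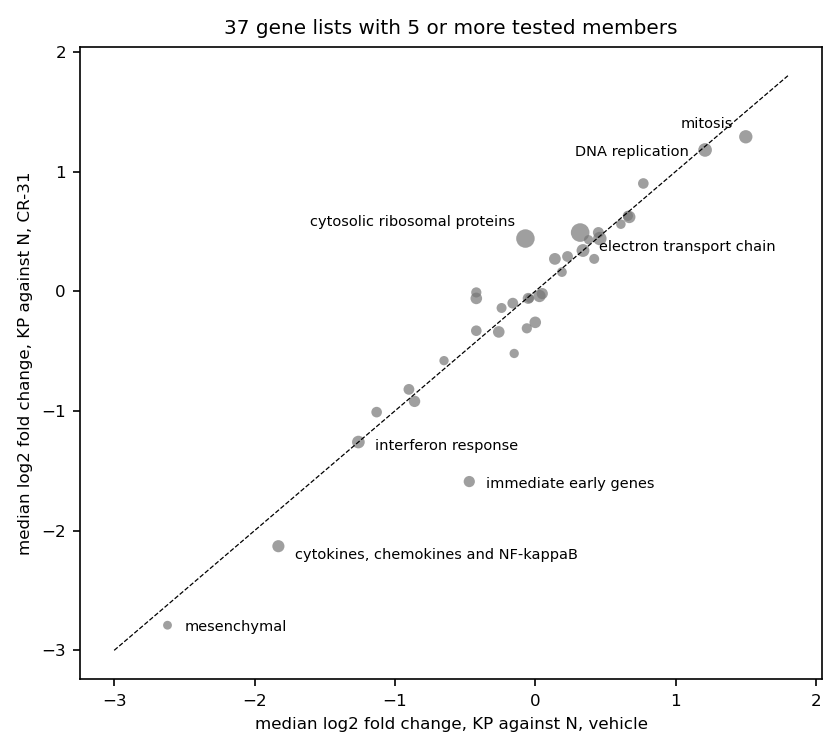
Median log2 fold change of KP against N with vehicle (x axis) and with CR-31 (y axis) for 37 gene lists with 5 or more tested members; point size grows with the number of members and the dashed line marks equal values. Most lists lie near the line, ribosomal proteins lie above it (0.44 against -0.07) and immediate early genes below it (-1.59 against -0.47).

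Polysome-associated mRNA of the same 6 lysates, the part bound by several ribosomes, was set against total mRNA in an edgeR model with the lysate as a block. No gene (0%) had an adjusted p under 0.25 for a difference between fractions in KP against N, and 332 had an unadjusted p under 0.05. The list medians of this difference were -0.33 for ribosomal proteins, 0.90 for immediate early genes and 0.19 for mitosis. For single genes the total mRNA value and the difference stood side by side, with Agr2 at 7.63 and 0.31, Spp1 at -2.44 and 0.93, and Egfr at -2.52 and 0.09.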

How the data were processed

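Organoids were profiled as 12 total mRNA and 12 polysome-associated libraries, of which the 6 total mRNA libraries with CR-31 are described here. The authors aligned the reads with HISAT2 at default settings, discarded reads with several matches and counted the rest on coding transcripts. The submitters' processing notes also name SAMtools, and the builds they name, hg38 and GRCh38, are human, while the genes of the table are mouse RefSeq genes. Counts per gene and library were deposited by the authors without normalization, beside 24 columns of RPKM that served here only to check the columns. The header names the 24 libraries once, so the unnamed count columns were matched to it by position. In 24 of 24 the logarithm of count over RPKM, less the gene mean, varied least across 10444 genes for the RPKM column at the same position. Entries that list several symbols (1042, with 8.69 to 11.5% of the reads) and symbols in more than 1 entry (50) were left out of tests and kept in library sizes. Following the study, genes with a count above 0 in all 24 libraries were tested (11438 of 18719).

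Tests used edgeR 4.0.16 (quasi-likelihood, TMM, Benjamini-Hochberg) in R 4.3.3 on the 6 libraries, with DESeq2 1.42.0 as an alternative. Adjusted p with a library left out come from the same edgeR test on 5 libraries, and those of differences between treatments or fractions from edgeR fits of 12. Standard errors (SE) were derived from the fold change and its F statistic. CPM values are relative to TMM-scaled library sizes of the 6 libraries. Sample groups came from the labels, which do not say whether replicates were separate animals, and p-values measure the spread between these 3 cultures of each type. The members and the 43 gene lists were chosen with earlier results of these data known. Named genes were the 15 highest and 15 lowest log2 changes with an adjusted p under 0.05, no overlap between types and a mean of at least 5 CPM, up to 6 called genes per list and direction by p, members a sentence turns on, and Trp53. A few items are not reported here. No gene met a further rule, at least 5 CPM in each library of 1 type and under 0.1 CPM in each of the other among untested genes. Samples with the same replicate number deviated together between treatments within a type in 6 of 6 pairs (r over 0.1). Between KP and N r was 0.0274, -0.178 and 0.137 with CR-31 and 0.304, -0.0971 and 0.0262 with vehicle. Pairs with different numbers reached 0.332, between KP replicate 3 and N replicate 2 with vehicle. The numbers were therefore taken to pair treatments and not types. Promoter sequences and gene positions are from RefSeq (GRCm38.p6) and GENCODE M21 (GRCm38). The scripts were tested on simulated data. Figures used Python 3.11.15 and matplotlib 3.10.9.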

Additional observations from a re-analysis of the deposited data

How the results depend on the processing

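With CR-31, leaving out 1 library at a time gave 371 to 1719 genes higher and 544 to 2015 lower, with KP replicate 1 at the low end and N replicate 1 at the high end. A model of all 12 total mRNA libraries gave 2162 higher and 2406 lower, and an adjusted p under 0.05 gave 177 and 338. RLE or upper-quartile scaling, DESeq2 and the other filters on low counts left both counts within 1.5 times, though not those of every list: ribosomal rises went from 29 to 18 with DESeq2 and 16 with upper-quartile scaling, and immediate early losses from 11 to 6 with DESeq2. With 12 libraries electron transport rises went from 27 to 52, S100 and annexin rises from 4 to 8 and WNT losses from 4 to 8. With the replicate number as a replicate block the counts over all genes were 1244 and 1488, and the numbers were not taken to pair KP with N cultures. The block took ribosomal rises to 8, immediate early losses to 3 and mesenchymal losses from 6 to 3. For the difference between CR-31 and vehicle, where they do pair cultures, the replicate block gave 1 gene against 0. The fit without the block also gave 0 with each culture left out, and the block was not fitted with a culture left out. The polysome difference also stayed at 0. The vehicle count ran from 1628 to 5430 with a library left out, an alternative chosen after seeing the data. Among 244 named genes 0 reversed in any setting, and 104 lost their call without KP replicate 1. The spread among 3 libraries per type limits these counts, and run code and genotype cannot be told apart.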
